A study of Homo sapiens with 26 samples.

Results

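The clustered histone genes encode the canonical core histones H2A, H2B, H3 and H4 and the linker histone H1, and lie in the large HIST1 cluster on chromosome 6, in the smaller HIST2 and HIST3 clusters on chromosome 1, and at the single gene HIST4H4. They were taken as every gene symbol beginning with HIST1H, HIST2H, HIST3H or HIST4H. This gave 73 of the 26485 symbols in the expression tables (0.276%), of which 6 are H1, 18 H2A, 20 H2B, 14 H3 and 15 H4 genes. The annotation marks 3 of them as pseudogenes, namely HIST1H2APS1 among the H2A and HIST2H2BA and HIST2H2BC among the H2B genes. By cluster, 56 belong to HIST1, 13 to HIST2, 3 to HIST3 and 1 to HIST4.

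Expression was measured in 3 esophageal squamous cell carcinoma (ESCC) cell lines after changing BRDT, a germ-cell BET bromodomain protein that binds acetylated histones, or TP63, the transcription factor that directs squamous gene expression. There were 26 libraries in 11 groups from 5 experiments. KYSE180 cells received non-targeting control siRNA (siCont, n = 3) or BRDT siRNA (siBRDT, n = 3) in one experiment, and siCont (n = 2) or TP63 siRNA (siTP63, n = 2) in another. TE6 cells received siCont, siBRDT or siTP63 (n = 2 each), so the 2 siCont libraries served both TE6 comparisons. KYSE150 cells received siCont or siTP63 (n = 2 each) in one experiment, and in another were electroporated with empty vector (cont, n = 3) or with a BRDT expression plasmid (BRDT-OE, n = 3). RNA was collected 48 h after siRNA transfection. The interval after electroporation is not given in the sources used here. All cells were established lines under transient treatment. No source says whether the libraries of a group came from separate cultures, so the p-values measure only the spread between these libraries, which may be technical.

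Most histone mRNA is made during S phase, when newly copied DNA is packaged, and histone genes are transcribed under the coactivator NPAT. These replication-dependent mRNAs differ from other mRNAs in their end: in place of a poly-A tail they finish just after a short stem-loop, which is bound by the stem-loop binding protein SLBP. Some cluster genes are also known to give longer, polyadenylated transcripts, and 6 such genes were set apart as a list: HIST1H1C (linker histone), HIST1H2AC (H2A), and HIST1H2BC, HIST1H2BD, HIST1H2BK and HIST2H2BE (H2B). The library kit used here selects RNA with a poly-A tail. A histone read in these data therefore reports polyadenylated or carried-over histone mRNA, and the share of all histone mRNA it stands for was not measured.

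The stem-loop that replaces the poly-A tail is shown because it defines the class. It was found in an annotated transcript of 71 of the 73 genes and took 10 forms of 16 bases. The forms shared by 4 or more genes are written 5′ to 3′ as the DNA letters of the annotated transcripts (GENCODE, GRCh38), with the arms of the stem in capitals and the loop in lower case.
Form 1, in 40 genes including HIST1H1C, HIST1H2AC and HIST2H2BE: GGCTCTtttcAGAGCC
Form 2, in 10 genes, all H4: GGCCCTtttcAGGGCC
Form 3, in 10 genes including HIST1H2BC, HIST1H2BD and HIST1H2BK: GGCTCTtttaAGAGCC
Form 4, in 4 genes, all H4: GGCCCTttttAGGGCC
Genes of the polyadenylated list thus carried the same stem-loops as the rest. In 19 genes the annotation held a longer form, whose transcript ran at least 100 bases past the loop or ended without it. The longest transcript ran 1128 bases past the loop in HIST1H2AC, 1729 in HIST2H2BE and 1862 in HIST1H3E, but only 4 in HIST1H1C and 5 in HIST1H2BK.

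Promoters are shown for 4 genes with an annotated longer form that the comparisons turn on, as the 250 bases before the RefSeq start site (GRCh38.p14), read along the strand of the gene. Capitals mark ATTTGCAT, the octamer known from H2B promoters, and TATAAA, the TATA box, each searched on both strands. No capital stretch overlaps another.
HIST1H2AC, chr6:26123922-26124171, plus strand: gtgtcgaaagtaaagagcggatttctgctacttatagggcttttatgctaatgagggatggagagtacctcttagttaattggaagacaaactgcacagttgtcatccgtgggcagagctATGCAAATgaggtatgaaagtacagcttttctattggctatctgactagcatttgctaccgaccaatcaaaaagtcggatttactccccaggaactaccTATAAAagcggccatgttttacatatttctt
HIST2H2BE, chr1:149886683-149886932, minus strand: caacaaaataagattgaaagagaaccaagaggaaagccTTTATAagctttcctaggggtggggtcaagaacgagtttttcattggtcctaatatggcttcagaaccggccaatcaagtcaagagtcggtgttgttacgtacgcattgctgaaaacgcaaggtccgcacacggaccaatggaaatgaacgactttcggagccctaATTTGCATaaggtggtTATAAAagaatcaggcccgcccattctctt
HIST1H2BD, chr6:26157871-26158120, plus strand: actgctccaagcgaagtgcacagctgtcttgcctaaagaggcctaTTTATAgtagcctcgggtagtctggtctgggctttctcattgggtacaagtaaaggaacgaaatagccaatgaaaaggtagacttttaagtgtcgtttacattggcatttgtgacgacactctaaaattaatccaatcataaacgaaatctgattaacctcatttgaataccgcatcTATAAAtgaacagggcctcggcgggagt
HIST1H3E, chr6:26223928-26224177, plus strand: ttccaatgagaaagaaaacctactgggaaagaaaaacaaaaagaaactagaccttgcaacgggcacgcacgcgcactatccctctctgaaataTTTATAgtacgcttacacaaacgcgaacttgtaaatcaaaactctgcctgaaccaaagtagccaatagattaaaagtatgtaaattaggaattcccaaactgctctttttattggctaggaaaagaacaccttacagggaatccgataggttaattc
The octamer began 46 bases before the start of HIST2H2BE, and on the other strand 130 bases before the start of HIST1H2AC. It was not among the printed letters of HIST1H2BD or HIST1H3E. TATAAA began 31, 30 and 28 bases before the start in the first 3 promoters, with a further match on the other strand 212 and 205 bases before the start in HIST2H2BE and HIST1H2BD. In HIST1H3E it was found only on the other strand, 157 bases before the start.

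Promoters were available for 65 of the 73 genes and were scanned from 250 bases before the start to 50 after it. ATTTGCAT was in 14 of 18 H2B and 11 of 16 H2A promoters, in 1 of 12 H3 promoters and in none of 6 H1 or 13 H4 promoters, against 1.80% of 27305 promoters in the genome. The 1 H3 match was in HIST1H3D, whose RefSeq start is also that of HIST1H2AD, so the same sequence was scanned for both genes. TATAAA was in 66.2% of the histone promoters and 12.0% of all promoters. CCAAT was in 84.6% and 35.7%. These are matches of letters and not evidence of binding.

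Detection was low. The libraries held 7582089 to 19372441 reads assigned to genes, and the clustered histone genes took 0.0154% to 0.058% of them. Between 40 and 61 of the 73 genes had at least 1 read in a library, and 23 had a read in all 26. No read was found in any library for 9 genes. These were HIST1H2AA, HIST1H2BA, HIST2H2BA and 3 pairs of near-identical copies (HIST2H2AA3 and HIST2H2AA4, HIST2H3A and HIST2H3C, HIST2H4A and HIST2H4B), whose transcripts match in whole or in part, so that reads may have been dropped when they were assigned to genes and a count of 0 says nothing of their expression. For a gene at 0, 3 reads, the limit that a count of 0 allows, correspond to 0.155 to 0.396 RPM (reads after scaling every library to the same total) depending on the library, which covers counting error only. The values analysed are counts divided by the size factor of each library, called normalised counts below. A gene was tested in an experiment when its mean normalised count there was at least 10, which kept 50 genes in at least 1 experiment and 14 in all 5. The number tested was 23 for KYSE180 siBRDT, 26 for TE6, 46 for KYSE180 siTP63, 34 for KYSE150 siTP63 and 23 for BRDT-OE.

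The genes of the polyadenylated list supplied 57.8% to 89.5% of the histone reads of a library. HIST1H1C, with a median of 31.0% of histone reads, and HIST1H2BK, with 29.8%, stood far above HIST1H2BD (5.89%) and HIST1H2AC (5.67%). Per length, HIST1H2BK had the highest median level, at 179 RPKM (RPM divided by gene length in kilobases), followed by HIST1H1C at 126 RPKM and HIST1H2BD at 21.3 RPKM. Their ranges over libraries overlapped, at 75.5 to 365 RPKM for HIST1H2BK and 45.4 to 402 RPKM for HIST1H1C. The germ-cell genes were at or near 0. HIST1H2AA and HIST1H2BA, the testis-specific H2A and H2B, had no read in any library, HIST1H1T, the testis-specific linker histone, had 10 reads in 6 libraries, and HIST3H3, a testis-specific H3, had 21 reads in 12 libraries.

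Some genes were tied to a cell line. HIST3H2A had a read in every KYSE180 and TE6 library, with 3.83 to 20.5 RPM in KYSE180 and 9.50 to 13.4 RPM in TE6. It had 0 reads in all 10 KYSE150 libraries, which allows a level of up to 0.0202 RPM over their summed reads. Its head-to-head partner HIST3H2BB likewise had 0 reads in KYSE150, against 50 reads in KYSE180 and 12 in TE6. HIST1H3C had 277 reads in KYSE180 and 1 read in each of the other lines. HIST1H2BH ran the other way, with 26.1 to 70.3 RPM in TE6, 2.23 to 7.36 RPM in KYSE180 and 1.08 to 4.15 RPM in KYSE150, so the TE6 libraries did not overlap those of either line.

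Reads of 5 RNA polymerase III transcripts, which carry no poly-A tail, were summed in each library as a gauge of carry-over. The sum of normalised counts was 48.4 to 87.0 in the KYSE180 siCont libraries of the BRDT experiment and 517, 587 and 84.4 in KYSE180 siBRDT. It was 859 and 786 in TE6 siCont, 2527 and 1123 in TE6 siBRDT, and 795 and 784 in TE6 siTP63. In the KYSE180 TP63 experiment it was 3421 and 1238 in siCont and 522 and 1008 in siTP63. KYSE150 siCont held 4422 and 364, KYSE150 siTP63 held 573 and 3345, and the 6 libraries of the BRDT-OE experiment held 199 to 452. The 4 libraries with the highest sums were the siCont replicate 1 libraries of the KYSE180 and KYSE150 TP63 experiments, KYSE150 siTP63 replicate 2 and TE6 siBRDT replicate 1. The part of this RNA in the histone values was not tested, and its values are given beside the results it moved with.

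**Figure D1:**
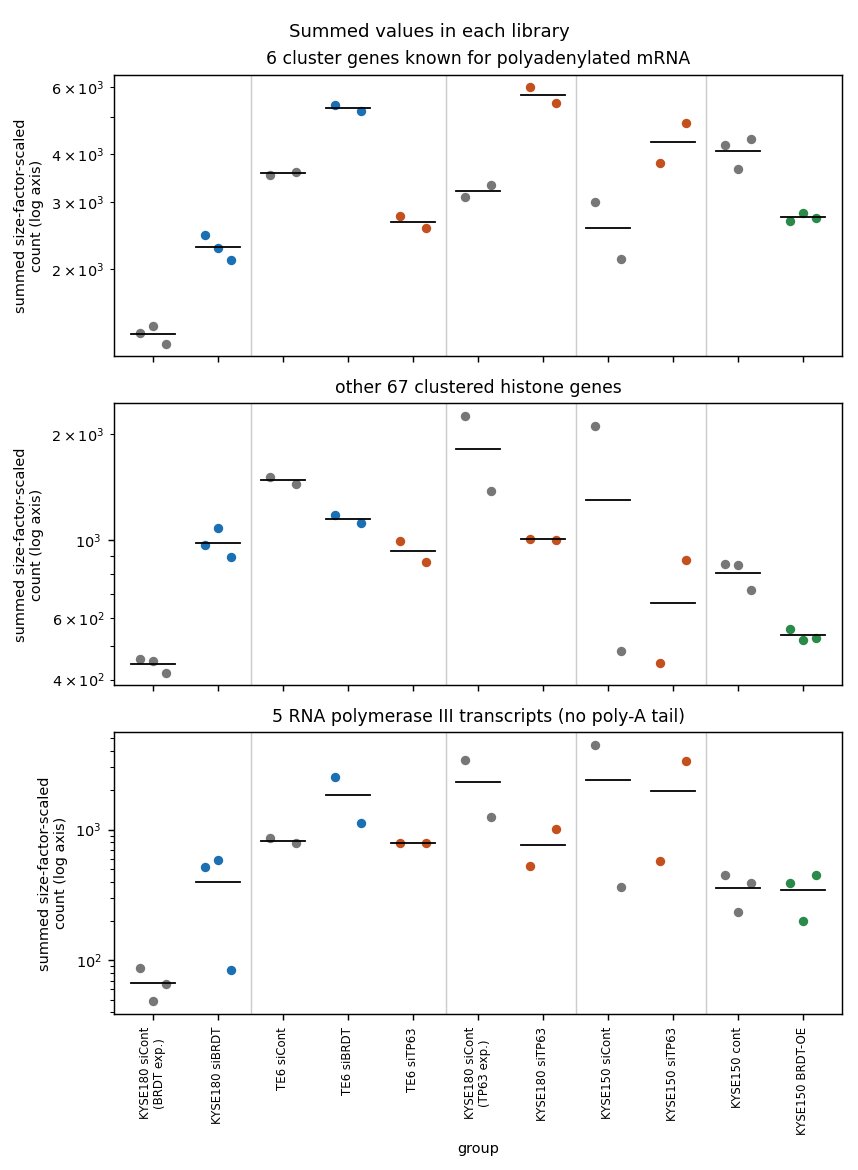
Summed normalised (size-factor-scaled) counts on log axes of the 6 genes of the polyadenylated list, the other 67 clustered histone genes and 5 RNA polymerase III transcripts, with 1 point per library and a line at the group mean; grey lines part the 5 experiments, which were normalised separately. The other 67 genes summed to 2109 and 483 in the KYSE150 siCont libraries, in the same order as the polymerase III sums of 4422 and 364.

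The targeted genes checked the labels. BRDT was at 1017, 1043 and 1136 in KYSE180 siCont and at 132, 147 and 198 after siBRDT, and at 241 and 242 in TE6 siCont against 55.0 and 46.6 after siBRDT. BRDT-OE raised it from 6.58 to 16.0 in the vector libraries to 15871, 15927 and 17542. TP63 was at 2573 and 3035 in KYSE180 siCont and 794 and 925 after siTP63, at 2596 and 2785 against 133 and 112 in TE6, and at 695 and 729 against 170 and 114 in KYSE150. Groups did not overlap in any of these. In the KYSE150 TP63 experiment, where BRDT was not targeted, it was at 60.9 and 8.25 in siCont and at 0 and 10.6 in siTP63. TP63 itself also fell after siBRDT, by 0.58 ± 0.07 in KYSE180 and by 1.15 ± 0.12 in TE6 on the log2 scale (± standard error). None of 7 squamous markers was at 0 in any library, but their levels ranged widely, from 132 to 4983 RPM for KRT5, 1.05 to 2124 RPM for KRT14 and 0.325 to 569 RPM for SOX2. Of the markers of other cell types, the fibroblast list summed to 3.63 to 119 RPM, with COL1A1 at up to 94.3 RPM, the leukocyte list to at most 4.04 RPM and the endothelial list to at most 12.1 RPM. Their part in the results was not tested.

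In KYSE180, histone genes rose after depletion of BRDT. Of the 23 genes tested, 16 rose and 2 fell (limma, adjusted p under 0.05 with a log2 change of 0.5 or more), where 14.5% of all 13589 genes tested rose and 15.8% fell. The median log2 fold change was 1.31, against -0.01 over all genes. All log2 fold changes are on the scale of log2(normalised count + 1), which understates the change of low genes, and are given with their standard error. The rise included both H1 genes tested, 4 of 6 H2A, 5 of 8 H2B, 4 of 6 H3 genes and the only H4 gene tested. Of the polyadenylated list 4 of 6 genes rose and 1 fell, and of the other 17 genes tested 12 rose and 1 fell. Genes with an annotated longer form rose in 8 of 9, against 8 of 14 without one. Among the 19 genes with a mean of at least 10 in both groups, which did not pass the filter through 1 group alone, 13 rose and 1 fell. These rises were in both H1 genes, 3 of 4 H2A, 4 of 7 H2B and 3 of 5 H3 genes and the 1 H4 gene.

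HIST1H2AC, an H2A gene with an annotated polyadenylated form, stood at 89.4, 109 and 100 in siCont and at 495, 520 and 498 in siBRDT. Every siBRDT library was above every siCont library by a wide margin, and the gene rose by 2.33 ± 0.10 (adjusted p = 2.02e-10, limma). HIST1H2BD stood at 158, 122 and 128 against 579, 567 and 508, a rise of 2.02 ± 0.11 (adjusted p = 1.29e-09). HIST2H2BE stood at 67.4, 69.6 and 61.8 against 196, 193 and 181, a rise of 1.51 ± 0.12 (adjusted p = 6.82e-08). Both H2B genes were without overlap between groups. HIST3H2A, the H2A gene of the HIST3 cluster, went from 67.4, 49.1 and 42.2 to 201, 215 and 205, a rise of 1.98 ± 0.16 (adjusted p = 7.28e-08). HIST1H1C, the most abundant linker histone here, went from 402, 435 and 365 to 655, 590 and 529, a smaller rise of 0.56 ± 0.09 (adjusted p = 0.000113) that fell under the fold change limit without siCont replicate 3 (0.49) or without siBRDT replicate 1 (0.48).

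The H3 and H4 genes that rose were less abundant. HIST1H3B stood at 3.68, 4.54 and 3.92 in siCont and 31.9, 20.8 and 20.0 in siBRDT, a rise of 2.30 ± 0.34 (adjusted p = 3.51e-05). It passed the filter through siBRDT alone. HIST1H3G went from 15.9, 15.9 and 22.6 to 61.7, 66.0 and 59.2, and HIST1H4H, an H4 gene with an annotated longer form, from 14.7, 13.6 and 14.7 to 57.5, 70.6 and 56.6. None of these 3 genes overlapped between groups. HIST1H2BJ rose by 1.68 ± 0.19 and HIST1H3H by 1.73 ± 0.22. HIST1H2AE, HIST1H2AL and HIST1H3E also passed the test, but their groups overlapped, and HIST1H3E kept its call only when the library left out was siBRDT replicate 1, being at 0.45 without siBRDT replicate 2 (adjusted p = 0.193). HIST1H2AL passed the filter through siBRDT alone.

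A few genes went the other way. HIST1H2BK, the most abundant H2B gene per length, stood at 625, 665 and 606 in siCont and at 525, 395 and 387 in siBRDT, a fall of -0.55 ± 0.10 (adjusted p = 0.00035). HIST2H2AC, the H2A partner of HIST2H2BE, stood at 22.1, 16.6 and 13.7 against 11.7, 6.95 and 8.71, a change of -0.87 ± 0.32 (adjusted p = 0.0304). It passed the filter through siCont alone. Neither fall was called when siBRDT replicate 2 or replicate 3 was left out, and 1 of the 2 was called without siCont replicate 1 or siCont replicate 2. HIST1H2BC was at 19.6, 19.7 and 15.7 against 11.7, 11.6 and 12.2, without overlap, but at -0.58 ± 0.27 did not pass the test (adjusted p = 0.0796).

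Beside these results, siBRDT replicates 1 and 2 held more polymerase III RNA than the siCont libraries and replicate 3 did not. With both left out, an alternative chosen after seeing the data, 10 genes rose and 1 fell, and HIST1H1C was at 0.41, under the limit. HIST1H2AC stood at 498 and HIST1H2BD at 508 in replicate 3 alone, close to the other 2 libraries. Of the genes that act on histone mRNA, SLBP fell from 1177, 1101 and 1066 to 527, 493 and 441, by -1.20 ± 0.08 (adjusted p = 1.23e-08), while NPAT was at 0.15 ± 0.10 (adjusted p = 0.208). ZNF473, a component of the histone pre-mRNA processing machinery, rose by 1.11 ± 0.09. Of the 27 genes of histone mRNA processing and transcription tested, 4 rose and 3 fell, of 33 S phase genes 3 rose and 3 fell, and of 22 histone chaperones 3 rose and 0 fell (12 at an unadjusted p under 0.05 in either direction). Of the 10 replacement variants, histone genes outside the clusters, H2AFX rose by 0.93 ± 0.08 and H1F0 fell by -0.69 ± 0.06. Since these are bulk libraries, fewer cells in a state and less RNA per cell cannot be told apart.

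**Figure D2:**
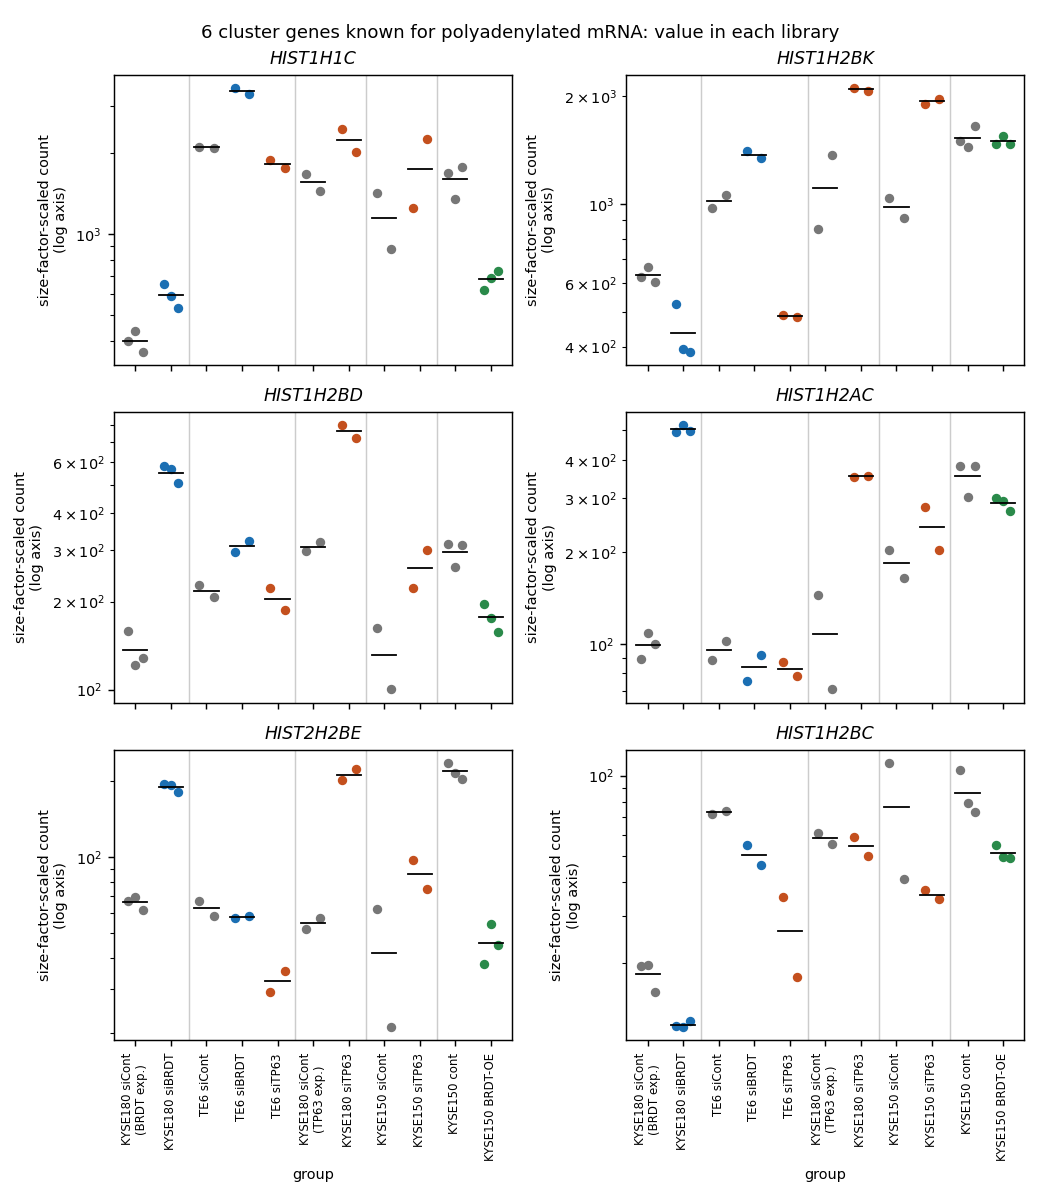
Normalised counts (log axis, a separate scale for each gene) of the 6 genes of the polyadenylated list in all 26 libraries, with 1 point per library and a line at the group mean; grey, controls; blue, siBRDT; orange, siTP63; green, BRDT-OE. HIST1H2AC reached 495 to 520 in KYSE180 siBRDT, above all siCont libraries of the same experiment. The experiments were normalised separately, so levels are compared only within each.

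In TE6, depletion of BRDT moved fewer histone genes. Of 26 genes tested 4 rose and 3 fell, where 15.6% of all 13333 genes rose and 18.1% fell, so the shares of the histone genes were near those of all genes. Their median log2 fold change was 0.06, against -0.04 over all genes. Over the 24 genes with a mean of at least 10 in both groups 3 rose and 2 fell, the calls of HIST1H1B and HIST1H3J being left out. Of the polyadenylated list 2 of 6 rose and 0 fell (3 at an unadjusted p under 0.05). HIST1H1C rose from 2107 and 2092 to 3498 and 3320, by 0.70 ± 0.09 (limma, adjusted p = 9.76e-05). HIST1H2BH, the H2B gene that was abundant in this line, fell from 796 and 709 to 311 and 357, by -1.17 ± 0.13 (adjusted p = 2.3e-05). In both genes the groups were clearly apart. HIST1H3J fell from 31.6 and 31.0 to 10.8 and 7.17 (-1.72 ± 0.39), and HIST1H3F, whose start faces that of HIST1H2BH, from 44.8 and 31.9 to 19.4 and 16.7 (-1.03 ± 0.33).

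HIST1H2BD, HIST1H2AE and HIST1H1B also rose in TE6, at 0.50 ± 0.15, 0.76 ± 0.26 and 1.37 ± 0.47. These 3 calls were fragile, since 1 gene rose without siCont replicate 1 and 2 rose without siCont replicate 2 or without siBRDT replicate 1. HIST1H2BK was at 1404 and 1340 against 977 and 1061, without overlap, but its 0.43 ± 0.11 was below the fold change limit (adjusted p = 0.00545). HIST1H2AC, which rose most clearly in KYSE180, was at 75.5 and 92.0 against 88.8 and 103, a difference of -0.19 ± 0.20 (adjusted p = 0.454). When the trend of fold change with gene length and GC content was removed, 0 of 26 histone genes rose and 7 fell. Of all 13078 genes then tested 1538 rose and 1638 fell, so the histone share that fell was above that of all genes. Histone mRNAs are short and GC-rich, with a median length of 508 bases against 2847 over all genes and 56.2% GC against 48.2%. The siBRDT libraries also held more polymerase III RNA than the siCont libraries.

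Among the other lists in TE6 siBRDT, 2 genes of histone mRNA processing and transcription rose and 4 fell, among them NPAT at -0.58 ± 0.22 and its partner CASP8AP2 at -1.18 ± 0.17. SLBP was at 0.06 ± 0.10. Of the S phase genes 2 rose and 6 fell, of the chaperones 1 rose and 2 fell, and of 9 replacement variants 2 rose and 0 fell.

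The response to siBRDT differed between the lines for 10 of the 19 histone genes tested in both (limma interaction, adjusted p under 0.05), where 41.9% of 12612 genes differed. The 19 genes are those with a mean of at least 10 in both experiments. HIST1H2AC differed most clearly, by -2.53 ± 0.20 (TE6 minus KYSE180, adjusted p = 7.23e-08), followed by HIST1H2BD (-1.52 ± 0.18) and HIST1H2BH (-1.54 ± 0.20). HIST1H2BK differed in the other direction, by 0.98 ± 0.16 (adjusted p = 0.000125), being lower after siBRDT in KYSE180 and higher in TE6. Its TE6 value of 0.43 was not called, and with the length and GC trend removed it was -0.18 (limma, adjusted p = 0.157). HIST1H1C rose in both lines, and its difference of 0.14 ± 0.14 did not pass the test (adjusted p = 0.44). With the length and GC trend removed it was called in neither, at 0.41 in KYSE180, under the limit, and at 0.12 in TE6 (adjusted p = 0.209).

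Depletion of TP63 in KYSE180 split the histone genes. Of 46 tested, 7 rose and 26 fell, where 23.6% of all 13924 genes rose and 25.7% fell. The median log2 fold change was -1.23, against 0.00 over all genes. It was -0.33 without siCont replicate 1 and -0.50 with the trend of fold change with gene length and GC content removed, and 0.52 over the 13 genes with a mean of at least 50. The polyadenylated list rose in 5 of its 6 genes with none falling (median 1.13), whereas of the other 40 genes 2 rose and 26 fell (median -1.40). By family, 3 of 5 H1, 5 of 10 H2A, 7 of 14 H2B, 6 of 10 H3 and 5 of 7 H4 genes fell. Of the genes with an annotated longer form 4 rose and 3 fell of 12, against 3 and 23 of the 34 without one. Since 16 genes reached a mean of 10 in 1 group only, and 15 of these were called, the count was also taken over the 30 genes with at least 10 in both groups, of which 7 rose and 11 fell.

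HIST2H2BE rose from 51.9 and 57.5 in siCont to 202 and 223 in siTP63, by 1.94 ± 0.20 (limma, adjusted p = 1.22e-08). HIST1H2BD went from 297 and 319 to 800 and 725 (1.30 ± 0.15, adjusted p = 5.52e-08), and HIST1H2AC from 145 and 70.8 to 352 and 355 (1.79 ± 0.22, adjusted p = 2.18e-07). In each the siTP63 libraries were all above the siCont libraries. HIST1H2BK went from 849 and 1372 to 2111 and 2071 (0.95 ± 0.17) and HIST1H1C from 1678 and 1439 to 2467 and 2018 (0.52 ± 0.15). HIST1H1C was at 0.38 without siTP63 replicate 1 (adjusted p = 0.118) and at 0.41 without siCont replicate 2, in both cases under the limit.

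Outside the list, HIST1H3E had the largest rise, from 11 and 10.3 to 81.3 and 79.4, by 2.81 ± 0.31 (adjusted p = 4.09e-08). It is an H3 gene whose longest annotated transcript runs far past the stem-loop. HIST1H2AE rose by 0.61 ± 0.24, a call lost when siCont replicate 1 or either siTP63 library was left out. HIST1H2BC, the sixth gene of the list, was at 61.3 and 55.4 against 59.1 and 50.1, with overlapping groups and a difference of -0.10 ± 0.25 (adjusted p = 0.75).

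Falls were called in all families. Of the 11 falls among the genes with at least 10 in both groups, 2 were in H1, 3 in H2A, 2 in H2B, 3 in H3 and 1 in H4. HIST1H3F and HIST1H2AH passed the filter through siCont alone. HIST1H3F stood at 67.6 and 48.3 in siCont and at 6.90 and 6.36 in siTP63, a fall of -2.93 ± 0.37 (adjusted p = 3.31e-07). HIST1H2AH stood at 59.8 and 35.9 against 3.83 and 3.97 (-3.27 ± 0.44), and HIST2H2AC at 107 and 83.2 against 16.9 and 27.0 (-2.09 ± 0.29). The groups were far apart in all 3 genes. HIST1H2BH went from 127 and 95.5 to 36.0 and 34.2 (-1.62 ± 0.24) and HIST1H1E, a linker histone, from 102 and 38.0 to 13.0 and 13.5 (-2.15 ± 0.37). HIST1H3B went from 94.4 and 25.7 to 17.6 and 18.3 (-1.41 ± 0.40) but was at -0.49 without siCont replicate 1 (adjusted p = 0.256).

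The count of falls rested in part on that siCont library, the one rich in polymerase III RNA. Without it 13 genes fell, and without siCont replicate 2 there were 31. HIST1H1B, at 91.2 and 23.6 in siCont, and HIST1H1E, at 102 and 38.0, show the gap between these 2 libraries. With the length and GC trend removed 14 of 46 genes fell, where 3437 of all 13598 did. With a minimum mean of 50, 3 of 13 fell, where 3287 of all 11492 did. That share of the histone genes was not above that of all genes. Scaling to equal upper quartiles moved the median of all genes to 0.19, raised the split of all calls from 3292 up and 3577 down to 4524 up and 2631 down. The median of the histone genes was then -1.05.

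The falls stood beside a broad fall of the S phase genes, of which 31 of 33 fell and 1 rose (median -1.15), among them PCNA, the sliding clamp of DNA replication, at -1.29 ± 0.14. SLBP fell from 1963 and 1656 to 1191 and 1127 (-0.64 ± 0.14, adjusted p = 0.000443) and NPAT rose from 99.1 and 117 to 156 and 153 (0.52 ± 0.19, adjusted p = 0.0235). Of the 27 processing and transcription genes 3 rose and 14 fell, and of 22 chaperones 1 rose and 13 fell. Of 10 replacement variants 0 rose and 5 fell (all 10 at an unadjusted p under 0.05), with H2AFZ, the gene of H2A.Z, at -2.18 ± 0.15 and H2AFX at -1.36 ± 0.15. The part of the S phase genes in the histone values was not tested.

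**Figure D3:**
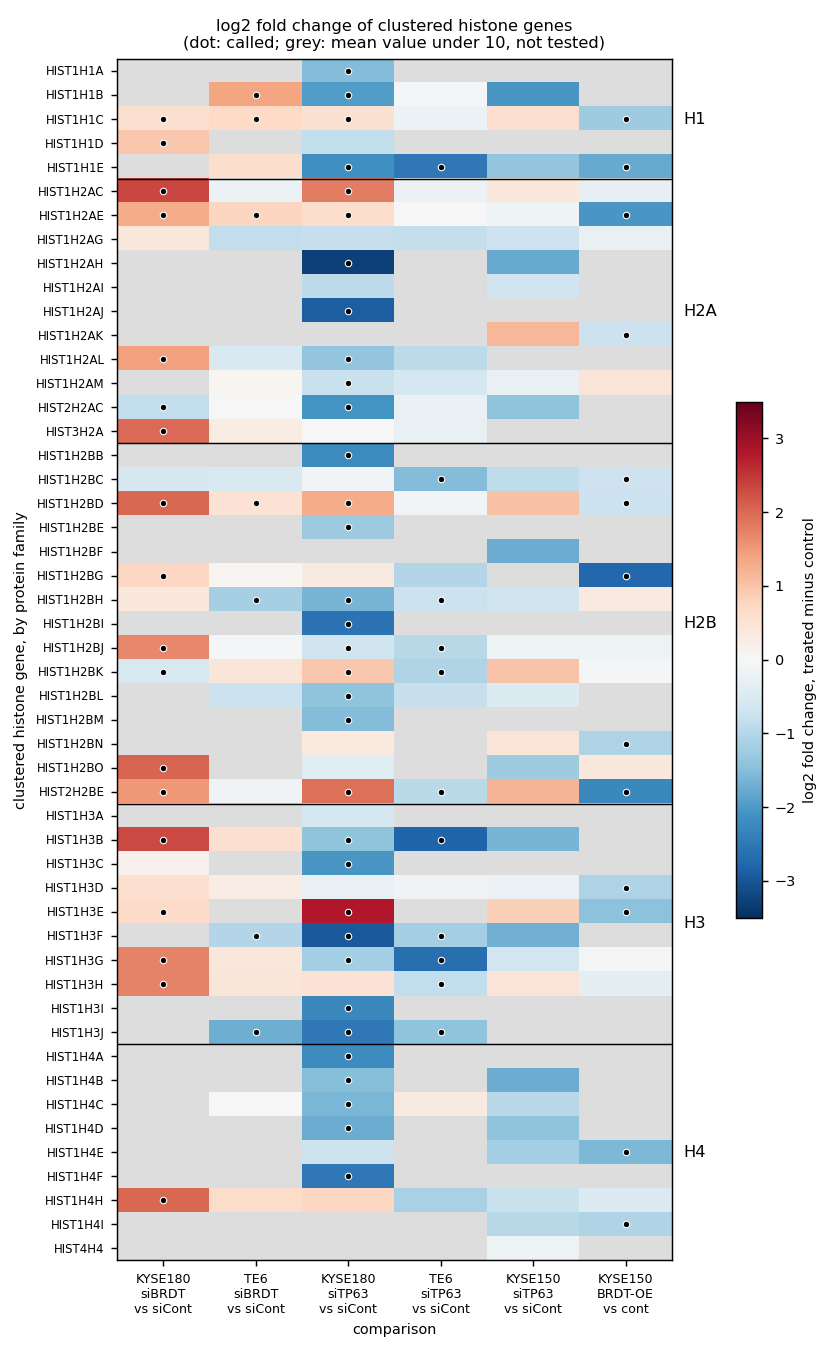
Log2 fold change (treated minus control) of the 50 clustered histone genes tested in at least 1 experiment, ordered by protein family, in the 6 comparisons with controls; dots mark calls and grey cells were not tested. KYSE180 siBRDT shows 16 rises and 2 falls, KYSE180 siTP63 7 and 26, and BRDT-OE 0 and 13.

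In TE6, histone genes fell after siTP63 and none rose. Of 26 tested 0 rose and 11 fell, where 18.3% of all 13333 genes rose and 20.6% fell. No histone gene was higher at an unadjusted p under 0.05, and edgeR and DESeq2 likewise called 0 up. By DESeq2 5 of 26 histone genes fell, near its share over all genes (2396 of 13333). By edgeR 12 of 26 fell, where 2785 of all 13333 genes did. The limma median was -0.86, against -0.01 over all genes. Of the polyadenylated list 3 of 6 fell and of the other 20 genes 8 fell. By family the falls took in 5 of 8 H2B and 5 of 6 H3 genes, 1 of 3 H1 genes and none of 7 H2A or 2 H4 genes. Over the 21 genes with a mean of at least 10 in both siCont and siTP63, 8 fell. These were 5 of 8 H2B and 3 of 4 H3 genes, and the 1 H1 gene left did not fall. The same siCont libraries served the siBRDT comparison.

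HIST1H2BK fell from 977 and 1061 to 488 and 484, by -1.06 ± 0.11 (limma, adjusted p = 5.93e-06), and HIST1H2BH from 796 and 709 to 466 and 432, by -0.74 ± 0.13 (adjusted p = 0.000396). HIST2H2BE fell from 66.8 and 58.6 to 29.2 and 35.5 (-0.94 ± 0.24) and HIST1H2BC from 72.1 and 74.1 to 35.2 and 17.8 (-1.51 ± 0.31). None of these 4 H2B genes overlapped between groups. HIST2H2BE lost its call without siCont replicate 1, at -0.84, and without siTP63 replicate 1, at -0.80. HIST1H3F (-1.18 ± 0.33) and HIST1H3J (-1.40 ± 0.39) also fell, against the same siCont libraries as after siBRDT. Without siCont replicate 1 HIST1H3F was called in neither TE6 comparison (adjusted p = 0.202 for siBRDT and 0.123 for siTP63), nor was it by DESeq2 (0.13 and 0.062). The siBRDT call was also lost without siCont replicate 2 (limma, adjusted p = 0.0592) and the siTP63 call without siTP63 replicate 1 (0.0503). For HIST1H3J after siTP63 the call was lost without either siCont replicate (limma, adjusted p = 0.0735 and 0.0766), without siTP63 replicate 1 (0.0556) and by DESeq2 (0.057). HIST1H3B, at 16.7 and 12.9 against 3.98 and 0, showed the largest fitted fall (-2.81 ± 0.67, adjusted p = 0.00377), where 1 read is worth about 1 normalised count. Its mean in siTP63 was under the filter of 10, and it lost its call without siCont replicate 1, at -2.64. HIST1H1C, HIST1H2BD and HIST1H2AC did not pass the test, at -0.20 ± 0.09, -0.10 ± 0.15 and -0.21 ± 0.20. The count depended on the controls: 4 genes fell without siCont replicate 1, 6 without siCont replicate 2, and 5 by DESeq2 against 12 by edgeR.

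Of the other lists in TE6 siTP63, 20 of 33 S phase genes fell and 0 rose, with 29 at an unadjusted p under 0.05. Of the 27 processing and transcription genes 1 rose and 7 fell, NPAT being at -0.96 ± 0.22 and SLBP at -0.26 ± 0.10 (adjusted p = 0.0479, under the limit). Of the chaperones 0 rose and 6 fell, and of 9 replacement variants 0 rose and 2 fell, H2AFZ by -1.55 ± 0.10. The polymerase III sums were just below those of siCont or overlapped them.

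The response to siTP63 differed between TE6 and KYSE180 for 13 of the 26 histone genes tested in both, where 55.0% of 12780 genes differed. HIST2H2BE differed by -2.88 ± 0.31 (TE6 minus KYSE180, adjusted p = 7.08e-07) and HIST1H2BK by -2.02 ± 0.23 (adjusted p = 1.04e-06). Both rose in KYSE180 and fell in TE6. HIST1H2AC (-2.0 ± 0.35) and HIST1H2BD (-1.40 ± 0.21) rose in KYSE180 and did not pass the test in TE6. HIST2H2AC (1.86 ± 0.37), HIST1H3F (1.75 ± 0.50) and HIST1H4C (1.92 ± 0.61) differed in the other direction. All 3 fell in KYSE180, whereas in TE6 HIST1H3F fell (-1.18) and the others were not called, HIST2H2AC at -0.23 and HIST1H4C at 0.32. In KYSE180 HIST1H3F passed the filter through siCont alone.

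Set against siBRDT in the same TE6 experiment, siTP63 libraries had lower values for 14 of 26 histone genes and higher values for 0. Of all genes 14.1% were higher and 14.3% lower. The 26 genes passed the filter on the mean of all TE6 groups, and some passed through groups other than siTP63. HIST1H3B, for example, had 6 and 0 reads after siTP63 and 20 and 19 after siBRDT. The number with a mean of at least 10 in both groups was not taken. No histone gene was called higher, although HIST1H2BH was at 0.43 ± 0.13 (limma, adjusted p = 0.0179). HIST1H2BK was at 488 and 484 after siTP63 and 1404 and 1340 after siBRDT (-1.49 ± 0.11, adjusted p = 9.89e-07), and HIST1H1C at 1890 and 1762 against 3498 and 3320 (-0.90 ± 0.09, adjusted p = 1.64e-05). For both genes the siCont libraries lay in between. The count was 6 without siTP63 replicate 2.

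In KYSE150, limma called no gene after siTP63, and libraries of the same group differed widely. Of 34 histone genes tested 0 rose and 0 fell, as 0 of all 12335 genes did (0%). At an unadjusted p under 0.05, 2 histone genes were higher and 0 lower. edgeR called 0 of all genes. DESeq2 called 201 of all genes up and 261 down, with HIST1H2BK as the 1 histone gene among them. HIST1H2BK was at 1039 and 916 in siCont and at 1905 and 1964 in siTP63, without overlap, a difference of 0.99 ± 0.19 (limma, adjusted p = 0.115). HIST1H2BD was at 162 and 100 against 223 and 299 (1.01 ± 0.32, adjusted p = 0.2) and HIST2H2BE at 62.4 and 21.2 against 97.2 and 74.5 (1.20 ± 0.54, adjusted p = 0.316), both also without overlap. The polyadenylated list had a median of 0.78 and the other 28 genes tested one of -0.75, with no calls in either. The difference between siTP63 effects in KYSE150 and in TE6 was not tested.

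Other histone genes in KYSE150 differed most between libraries of 1 group. HIST1H3B was at 163 and 16.5 in siCont and 7.48 and 34.6 in siTP63, and HIST1H1E at 255 and 41.2 against 17.5 and 85.2. In both genes the high siCont library and the high siTP63 library were the ones rich in polymerase III RNA. Without siCont replicate 2 limma called 14 histone genes down, of 141 up and 101 down over all 12357 genes. Without siCont replicate 1 it called 1 up, HIST2H2BE, of 182 up and 77 down over all 12308 genes. The S phase genes were lower in 33 of 33, with a median of -0.92 and 25 at an unadjusted p under 0.05, but none passed the adjusted test. Of the 27 processing and transcription genes, 22 chaperones and 10 replacement variants none was called, with 8, 7 and 3 at an unadjusted p under 0.05.

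Histone genes fell after forced expression of BRDT in KYSE150. Of 23 tested 0 rose and 13 fell, where 10.5% of all 12765 genes rose and 16.0% fell. No gene was higher at an unadjusted p under 0.05 and none was called up by edgeR or DESeq2, which called 13 and 12 down. The median was -0.74, against 0.02 over all genes. Both H1 genes tested fell, as did 2 of 5 H2A, 5 of 9 H2B, 2 of 4 H3 and 2 of 3 H4 genes. Of the polyadenylated list 4 of 6 fell and of the other 17 genes 9 fell. Over the 19 genes with a mean of at least 10 in both groups 10 fell, namely both H1, 1 of 4 H2A, 4 of 7 H2B, 1 of 3 H3 and 2 of 3 H4 genes. Leaving out any 1 library gave 11 to 13 falls.

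HIST2H2BE fell from 237, 215 and 205 in the vector libraries to 37.8, 54.1 and 45.0, by -2.25 ± 0.16 (limma, adjusted p = 4.84e-06). HIST1H1C fell from 1689, 1353 and 1773 to 621, 688 and 731, by -1.23 ± 0.11 (adjusted p = 1.61e-05). HIST1H2BD fell from 314, 262 and 312 to 197, 175 and 157 (-0.74 ± 0.12, adjusted p = 0.00058). In each, all BRDT-OE libraries were below all vector libraries. HIST1H2BG fell from 54.2, 28.3 and 29.6 to 5.16, 5.92 and 2.81 (-2.75 ± 0.37) and its head-to-head partner HIST1H2AE from 31.6, 36.8 and 23.0 to 6.88, 9.30 and 4.22 (-2.04 ± 0.34). Both passed the filter through the vector group alone. HIST1H1E was at 78.6, 84.9 and 60.3 against 24.1, 14.4 and 26.7 (-1.76 ± 0.25) and HIST1H4E at 37.9, 37.7 and 30.7 against 12.0, 9.30 and 12.7 (-1.57 ± 0.25). HIST1H3E (-1.43 ± 0.31), HIST1H3D (-1.09 ± 0.23) and HIST1H2BC (-0.71 ± 0.17) also fell, of which HIST1H3E passed the filter through the vector group alone.

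The most abundant H2B gene was not among those that fell. HIST1H2BK was at 1497, 1443 and 1652 in the vector libraries and 1468, 1547 and 1469 in BRDT-OE, with overlapping groups and a difference of -0.03 ± 0.07 (adjusted p = 0.737). HIST1H2BJ was at -0.19 ± 0.11 and HIST1H2AC at -0.29 ± 0.11 (adjusted p = 0.0497), the latter under the limit. With the length and GC trend removed HIST1H2BK was at 0.16. The polymerase III sums of the 2 groups overlapped. Of the S phase genes, 10 of 33 rose and 0 fell (27 at an unadjusted p under 0.05), as did 4 of 27 processing and transcription genes with 0 falling (15) and 3 of 22 chaperones with 0 falling (14). SLBP was at 0.16 ± 0.08 and NPAT at 0.44 ± 0.12, both under the limit. Of 10 replacement variants 1 rose and 3 fell. H2AFX rose by 0.66 ± 0.08, and H1F0, the replacement linker histone of resting cells, fell from 5110, 4312 and 4867 to 1833, 1564 and 1891 (-1.43 ± 0.09), with H1FX at -1.31 ± 0.09 and H2AFJ at -1.18 ± 0.12. Scaling to equal upper quartiles changed the split over all genes from 1343 up and 2043 down to 889 up and 2529 down.

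Set side by side, HIST1H1C and HIST2H2BE rose in KYSE180 after either knockdown and fell in KYSE150 after BRDT-OE. HIST1H1C was at 0.56, 0.70 and 0.52 in KYSE180 siBRDT, TE6 siBRDT and KYSE180 siTP63, at -0.20 in TE6 siTP63 and 0.58 in KYSE150 siTP63, neither of which passed the test, and at -1.23 in BRDT-OE. HIST2H2BE was at 1.51, -0.11, 1.94, -0.94, 1.20 and -2.25 in the same order, where the values in TE6 siBRDT and KYSE150 siTP63 were not called. HIST1H2BK did not follow this order, at -0.55, 0.43, 0.95, -1.06, 0.99 and -0.03. Because the lines and agents differ, and the interval for BRDT-OE is not given, the values are set next to each other without a test.

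Many H2A and H2B genes lie head to head and share the sequence between their starts. There were 16 such pairs with starts at most 1000 bases apart, taking the RefSeq start or, for genes without one, the annotated gene end, and 3 of these paired an H3 with an H2B gene. The pair of HIST1H3D with HIST1H2BF rests on a RefSeq start that HIST1H3D shares with HIST1H2AD. That start lies outside the GENCODE span of HIST1H3D, and HIST1H2AD with HIST1H2BF is also among the pairs. Both partners were tested in 12 pairs and in 38 combinations of pair and comparison. Both were called in the same direction in 7, in opposite directions in 3, only 1 was called in 13 and neither in 15. HIST1H2BG and HIST1H2AE were called in the same direction in KYSE180 siBRDT, at 0.73 and 1.31, and in BRDT-OE, at -2.75 and -2.04. In BRDT-OE both passed the filter through the vector group alone. Only HIST1H2AE was called in TE6 siBRDT, at 0.06 and 0.76, and in KYSE180 siTP63, at 0.32 and 0.61. Neither was called in TE6 siTP63, at -1.01 and 0.02. HIST1H3F and HIST1H2BH fell together in TE6 siBRDT, KYSE180 siTP63 and TE6 siTP63.

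HIST2H2BE and HIST2H2AC, whose starts are 236 bases apart, were called in opposite directions, at 1.51 and -0.87 in KYSE180 siBRDT and at 1.94 and -2.09 in KYSE180 siTP63. HIST1H2BK and HIST1H2AH, with starts 248 bases apart, were the other pair called in opposite directions, at 0.95 and -3.27 in KYSE180 siTP63. There HIST1H2AH passed the filter through siCont alone, as HIST2H2AC did in KYSE180 siBRDT. The latter call of HIST2H2AC was lost by DESeq2 (adjusted p = 0.103) and when some single libraries were left out. The promoter of HIST2H2BE printed above spans the start of HIST2H2AC. HIST1H2AC and HIST1H2BC, with starts 246 bases apart, diverged as well, at 2.33 and -0.58 in KYSE180 siBRDT and 1.79 and -0.10 in KYSE180 siTP63, where only HIST1H2AC was called. In TE6 siTP63 it was HIST1H2BC that fell (-1.51) and HIST1H2AC that was not called (-0.21). Shared sequence between starts thus went with shared direction in some pairs and not in others. Reads of HIST1H2BC are uncertain, since its annotated span of chr6:26086317-26123926 takes in other genes of the cluster, such as HIST1H4C.

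**Figure D4:**
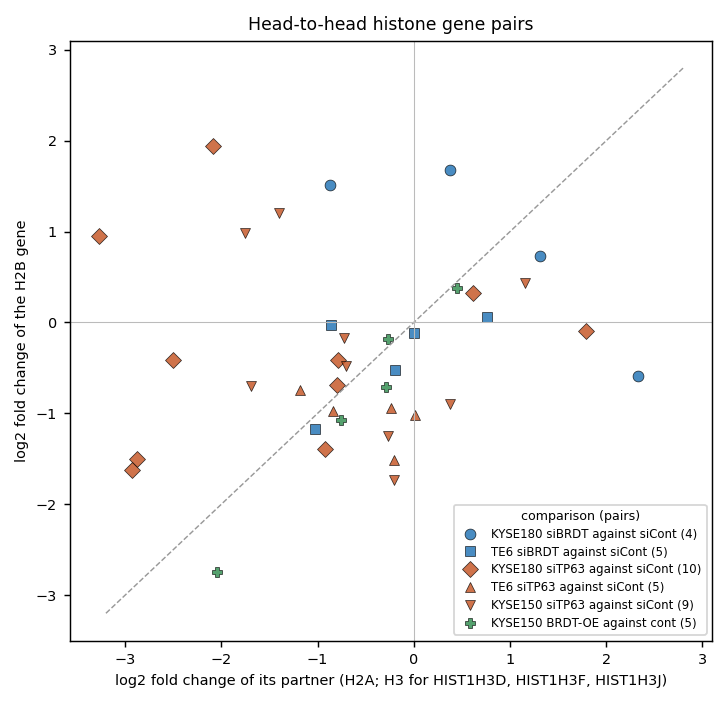
Log2 fold changes of the 2 genes of each head-to-head pair, the H2B gene on the vertical axis and its H2A or H3 partner on the horizontal axis, 1 point for each of the 38 combinations of pair and comparison; the dashed line marks equal change. HIST2H2BE and HIST2H2AC lie in the upper left, at 1.94 and -2.09 in KYSE180 siTP63, and HIST1H2BG and HIST1H2AE in the lower left, at -2.75 and -2.04 in BRDT-OE.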

How the data were processed

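RNA of KYSE180, TE6 and KYSE150 cells was sequenced in 26 libraries with a kit that selects poly-A RNA. Per the submitters' processing notes, reads were handled with STAR 2.6.0, HTSeq 0.11.2 and DESeq2 1.24.0 on hg38. The annotation, strand setting and treatment of multiply mapped reads are not given in the sources used here. The deposited values are a signal made by the authors as gene counts divided by the size factor of each library, in 1 table for each of 5 experiments. Whole reads were recovered from them for 100% of values within 0.01 read, and gave each library's depth. Libraries were grouped by their labels. The reads were used for RPM, RPKM and the count tests only, and each table was tested on its own.

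Within each table, genes with a mean of at least 10 were tested on log2(value + 1) with limma 3.58.1 (lmFit and eBayes with trend, in R 4.3.3), two-sided, with Benjamini-Hochberg adjustment over all genes, and called at an adjusted p under 0.05 with a log2 change of 0.5 or more, after the thresholds of the study. TE6 groups shared 1 fit. Line differences were tested as the interaction in a joint fit. Alternatives were a pseudocount of 0.1, no filter, a minimum mean of 50, equal upper quartiles, edgeR 4.0.16 and DESeq2 1.42.0 on recovered reads, removal of a length and GC trend (spline with 4 degrees of freedom), a replicate block, and leaving out each library. The scripts were tested on simulated data. Figures were drawn with matplotlib 3.10.9.

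The histone genes and all gene lists were chosen with earlier results of these data known. Genes named in a comparison were the polyadenylated list, 17 genes named in every comparison where tested, and up to 8 called genes of largest rise and fall. HIST3H2A and HIST3H2BB, HIST1H3C and HIST1H3D, HIST1H2AG, HIST2H2AC and the genes of the other lists that fall outside this rule were named after their values were seen. Near-identical copies, and genes that overlap others such as HIST1H2BC, have uncertain counts. Promoters came from RefSeq (GRCh38.p14) and transcripts from GENCODE.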

Additional observations from a re-analysis of the deposited data

Results flagged for a closer look

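The histone genes given here are listed because the effect of the same siRNA differed between cell lines by a test of the difference itself (limma, adjusted p under 0.05), each value being the log2 effect in TE6 minus that in KYSE180. They are 10 of 19 genes for siBRDT and 13 of 26 for siTP63, where 41.9% and 55.0% of all genes differed. For siBRDT the differences were -2.53 for HIST1H2AC, -1.97 for HIST1H2AL, -1.52 for HIST1H2BD, -1.54 for HIST1H2BH, -1.71 for HIST1H2BJ, -1.31 for HIST1H3H, -1.38 for HIST1H4H, -1.62 for HIST2H2BE and -1.71 for HIST3H2A. HIST1H2BK differed in the other direction, by 0.98. HIST1H2AL passed the KYSE180 filter through siBRDT alone.

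For siTP63 the effect was lower in TE6 by -0.72 for HIST1H1C, -2.0 for HIST1H2AC, -1.41 for HIST1H2BC, -1.40 for HIST1H2BD, -2.02 for HIST1H2BK, -1.38 for HIST1H3H, -1.86 for HIST1H4H and -2.88 for HIST2H2BE. It was higher in TE6 by 1.92 for HIST1H1B, 0.88 for HIST1H2BH, 1.75 for HIST1H3F, 1.92 for HIST1H4C and 1.86 for HIST2H2AC. In TE6 HIST1H1B passed the filter through siBRDT alone, which is not part of this difference. It had 10 reads in each siCont library, 9 and 8 in siTP63 and 30 and 15 in siBRDT. HIST1H3F passed the KYSE180 filter through siCont alone. HIST1H4H had only 14 and 2 reads in TE6 siTP63. HIST1H1B and HIST1H4H had adjusted p values of 0.0383 and 0.0344, the closest to the limit. The KYSE180 side of these siTP63 differences includes the siCont library rich in polymerase III RNA, and its part in them was not tested.

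HIST1H2BK and HIST2H2BE were higher in every KYSE150 siTP63 library than in the KYSE150 siCont libraries and lower in every TE6 siTP63 library than in TE6 siCont. The effect in KYSE150 minus that in TE6 was 2.05 for HIST1H2BK and 2.14 for HIST2H2BE. These 2 differences were not tested.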

How the results depend on the processing

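All 67 called log2 fold changes among the 112 given for named genes kept their direction in every alternative, and 27 lost the call in at least 1. Of 1702 alternative values, 1511 kept direction and call, 107 lost the call, 40 gained one and 44 changed sign, all of the latter for uncalled values. Most genes have few reads, so a minimum mean of 50 left fewer genes and fewer calls: 6 up and 1 down in KYSE180 siBRDT, 1 down in TE6 siBRDT, 3 down in KYSE180 siTP63, 4 down in TE6 siTP63 and in BRDT-OE, 7 for TE6 siTP63 against siBRDT, and 5 and 8 genes differing between lines for siBRDT and siTP63. Without a filter 1 gene was down in KYSE180 siBRDT, 2 up in TE6 siBRDT and 1 up in BRDT-OE. DESeq2 called 1 down in KYSE180 siBRDT, 2 up in TE6 siBRDT, 5 down in TE6 siTP63, 1 up in KYSE150 siTP63 and 7 for TE6 siTP63 against siBRDT. Without the KYSE180 siBRDT libraries rich in polymerase III RNA, 10 were up and 1 down.

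With the length and GC trend removed, 0 genes were up and 7 down in TE6 siBRDT, 14 down in KYSE180 siTP63 and 1 up in KYSE150 siTP63. The cause of these shifts was not tested. Under it these values changed sign: in TE6 siBRDT HIST1H2BK (-0.18), HIST1H1E (-0.024), HIST1H2BG (-0.47), HIST1H3B (-0.021) and HIST1H3G (-0.20), in KYSE180 siTP63 HIST1H2BC (0.022), in TE6 siTP63 HIST1H2AE (-0.25), and in BRDT-OE HIST1H2BK (0.16) and HIST1H3G (0.11). Equal upper quartiles turned HIST1H2BJ in TE6 siBRDT (0.0070), HIST1H2BC in KYSE180 siTP63 (0.093) and HIST1H1B in TE6 siTP63 (0.0015), and edgeR (0.0069) and DESeq2 (0.024) also turned HIST1H2BJ. In KYSE180 siTP63 equal upper quartiles moved the median of all genes by 0.19.

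Leaving out 1 library at a time gave 13 to 17 up and 0 to 2 down in KYSE180 siBRDT, 1 to 4 up and 2 to 4 down in TE6 siBRDT, 5 to 7 up and 13 to 31 down in KYSE180 siTP63, 0 up and 4 to 14 down in TE6 siTP63, 0 to 1 up and 0 to 14 down in KYSE150 siTP63, 0 up and 11 to 13 down in BRDT-OE, 6 to 14 for TE6 siTP63 against siBRDT, and 8 to 14 and 10 to 16 genes differing between lines. Uncalled values that changed sign were, in TE6 siBRDT, HIST1H2BG (-0.12 to 0.24), HIST1H2BJ (-0.35 to 0.30) and HIST1H3G (-0.15 to 0.97). In KYSE180 siTP63 it was HIST1H2BC (-0.22 to 0.018). In TE6 siTP63 they were HIST1H2BD (-0.22 to 0.033), HIST1H1B (-0.48 to 0.40), HIST1H2AE (-0.28 to 0.32) and HIST1H2BG (-2.15 to 0.13). In KYSE150 siTP63 they were HIST1H2AE (-1.45 to 1.15), HIST1H2BH (-1.59 to 0.19), HIST1H2BJ (-0.56 to 0.21), HIST1H3G (-1.64 to 0.28) and HIST1H3H (-0.28 to 1.18), and in BRDT-OE HIST1H2BK (-0.074 to 0.024) and HIST1H3G (-0.22 to 0.13).

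Same-numbered libraries did not deviate together in every pair (the correlations in KYSE180 siBRDT were 0.153, 0.0047 and 0.178), so the numbers were not taken as pairs. A replicate block alone changed no call of a named gene. With the length and GC trend removed and the replicate block, 0 genes were up and 6 down in TE6 siBRDT and 16 down in KYSE180 siTP63, and the changes of sign under that trend were the same values. In KYSE150 siTP63 the correlation was -0.70, and with the pairing crossed, a setting chosen after seeing the data, 4 histone genes were called up and 10 down, of 1626 up and 1774 down over all 12335 genes.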
